A study of Mus musculus with 12 samples.

Results

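The common gamma chain cytokine receptors are the receptor chains that signal for interleukin (IL)-2, IL-4, IL-7, IL-9, IL-15 and IL-21 through a shared subunit. The set was chosen by name and holds 8 genes of the 38924 in the deposited count table: Il2rg for the shared gamma chain, Il2rb for the beta chain used by IL-2 and IL-15, and Il2ra, Il15ra, Il4ra, Il7r, Il9r and Il21r for the chains that give each receptor its cytokine specificity. All 8 were measured in every library and all 8 passed the filter on low counts. RNA sequencing covered naive CD4+ T cells sorted from the spleen of WT or STINGgt/gt mice, both on the C57BL/6 background, 8–12 weeks old and of the same gender. STINGgt/gt mice carry the Goldenticket missense mutation of Tmem173, which leaves no functional STING protein, and their samples are labelled as STING KO. T cells of both genotypes were expanded through CD3 and CD28 with antibodies for 2 days and rested for 1 day. For the last 16 h they received either DMSO, the solvent, or the mouse STING agonist 10-carboxymethyl-9-acridanone (CMA). The resulting 4 groups were WT with DMSO, WT with CMA, STINGgt/gt with DMSO and STINGgt/gt with CMA, with 3 libraries in each.

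Each of these cytokines is recognised by a chain of its own at the cell surface. That chain acts with the gamma chain, and for IL-2 and IL-15 also with the beta chain. Jak1 is bound to the cytokine-specific or beta chain and Jak3 to the gamma chain, and together they phosphorylate STAT proteins, chiefly STAT5 for IL-2, IL-7, IL-9 and IL-15, STAT6 for IL-4 and STAT3 for IL-21. In T cells IL-2 drives expansion after activation, whereas IL-7 and IL-15 maintain resting and memory cells. Loss of the gamma chain causes severe combined immunodeficiency.

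The libraries held 27414450 to 43784910 reads on genes. Replicates of a group differed beyond counting noise in all pairs (chi-square per degree of freedom 2.52 to 27.7), so that no library was a copy of another. The sources do not say which libraries came from which mice, so the p-values measure the spread between these libraries. The mRNA of Tmem173 did not serve as a check of the genotype labels, because a missense mutation need not alter it, and with DMSO it differed between the genotypes by a log2 value of 0.10 (adjusted p = 0.0827). The T-cell markers Cd3d, Cd3e, Cd3g, Cd4, Cd5 and Trac were detected in all groups, with summed levels between 1699 and 2003 CPM (counts relative to the library size after TMM scaling, which allows for differences in RNA composition).

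The receptor genes lie on 5 chromosomes of GRCm38, and 4 of the 8 are neighbours in pairs. On chromosome 2, Il2ra (11642792 to 11693191, plus strand) is followed after 12.1 kb by Il15ra (11705287 to 11733986, plus strand). On chromosome 7, Il4ra (125552282 to 125579472, plus strand) is followed after 24.0 kb by Il21r (125603429 to 125633570, plus strand). No annotated gene lies wholly within either gap. Il2rb (78480553 to 78495066) and Il7r (9506161 to 9529876) lie apart on the minus strand of chromosome 15, Il9r on the minus strand of chromosome 11 (32187541 to 32200279) and Il2rg on that of chromosome X (101264378 to 101268255). Il2rg shares 728 exonic bases with Gm20489, a gene model on the same strand that was listed at 0 in all libraries, so reads on those bases may have been left out as ambiguous and Il2rg may be undercounted in every group alike. Il4ra shares 571 exonic bases with Gm44876 on the opposite strand.

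Set side by side per kb of exon, the receptor mRNAs spanned a wide range in each group. Il2ra, the alpha chain that raises the affinity of the receptor for IL-2 on activated T cells, was the most abundant of them in all 4 groups, with 331.4 ± 17.9 CPM per kb (SD, n = 3) in WT with DMSO and 353.0 ± 10.6 with CMA. In STINGgt/gt it reached 222.7 ± 3.34 with DMSO and 228.6 ± 5.08 with CMA. Il2ra alone took 0.188% of all reads in WT with DMSO, 0.197% in WT with CMA, 0.129% in STINGgt/gt with DMSO and 0.132% in STINGgt/gt with CMA. Il9r was the least abundant in all groups, between 0.298 and 1.02 CPM per kb on average, and rested on 45 to 181 reads per library.

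The order of the levels differed between the groups in the middle of the scale. In WT with DMSO it ran from Il2ra over Il2rb (195.3 CPM per kb), Il21r (110.0), Il2rg (109.6), Il4ra (74.4), Il7r (15.5) and Il15ra (7.35) to Il9r, and only the neighbours Il21r and Il2rg overlapped between libraries. With CMA in WT, Il2rg (186.9) stood above Il2rb (173.4) and Il21r (163.3), and no neighbours overlapped. Places this close rest on the exon lengths of GENCODE M21, which gives Il2rb a longer span than the positions deposited with the counts. Both STINGgt/gt groups had Il2rb, Il2rg, Il21r and Il4ra in that order below Il2ra, without overlaps. Il7r stood above Il15ra in both WT groups and below it in both STINGgt/gt groups, where Il7r had 5.07 CPM per kb with DMSO and 3.77 with CMA against 13.76 and 14.04 for Il15ra. The summed level of the 8 mRNAs was 843.9 ± 9.51 CPM per kb in WT with DMSO, 1006 ± 15.5 in WT with CMA, 634.7 ± 5.54 in STINGgt/gt with DMSO and 636.6 ± 13.8 in STINGgt/gt with CMA (SD, n = 3).

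**Figure D1:**
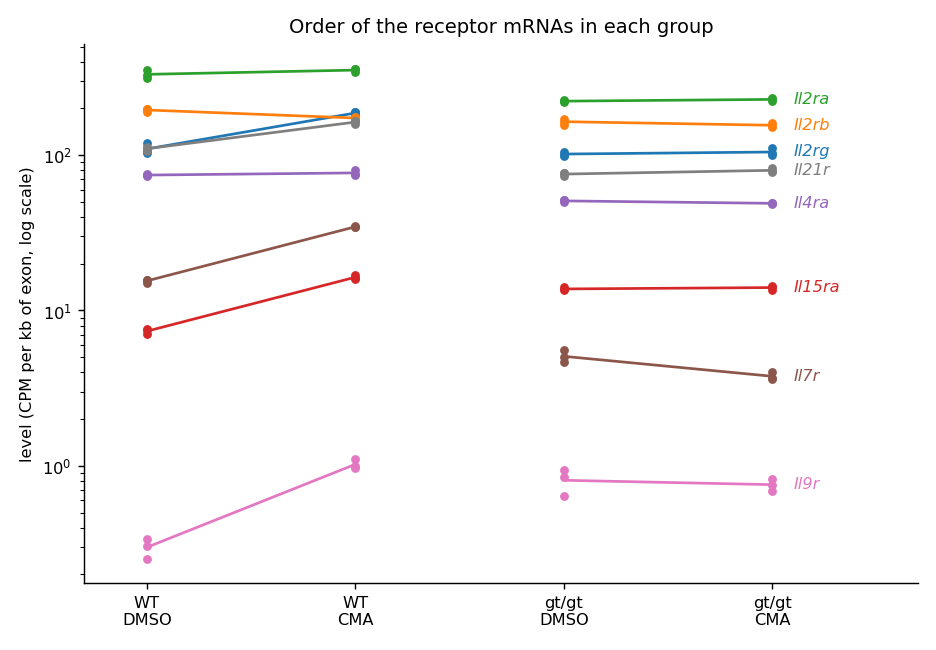
Level of each receptor mRNA in CPM per kb of merged exon (log axis) in the 4 groups; points are libraries (n = 3) and lines join the means with DMSO and CMA within a genotype. Il2ra is highest and Il9r lowest in all groups, and Il7r lies above Il15ra in WT and below it in STINGgt/gt (gt/gt).

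The first question was which receptor mRNAs changed in level with CMA and whether the change differed between the genotypes. The paper reports that overnight CMA drives WT T cells into apoptosis and spares those of STINGgt/gt mice. The WT libraries with CMA may thus hold RNA of dying or surviving cells. Whether cell death had a part in the changes was not tested. In WT T cells 5 of the 8 rose with CMA, namely Il9r, Il7r, Il15ra, Il2rg and Il21r, 1 fell, Il2rb, and Il2ra and Il4ra did not pass the threshold of an adjusted p of 0.05 in edgeR's quasi-likelihood test. Among all 13811 genes tested 70.4% passed, 33.0% as higher and 37.4% as lower, so that a changed gene was in itself common in WT. The median change of the receptors was a log2 value of 0.67, and that of all genes tested was -0.04. In STINGgt/gt T cells 1.32% of all genes passed with CMA, 0.398% as higher and 0.920% as lower, in the fit without a block. These 55 higher and 127 lower genes became 130 and 233 with a block on the replicate number. With a block by library name they became 12 and 31. None of the receptors was higher with CMA in STINGgt/gt, and Il7r alone was lower. Il7r was also the only receptor there with an unadjusted p under 0.05. DESeq2 and limma-voom likewise called none higher. The median change of the receptors there was -0.01, against 0.0013 for all genes. The change with CMA differed between the genotypes for the same 5 receptors that rose in WT, against 58.8% of all genes tested, 27.2% as higher and 31.6% as lower in WT. The difference of the changes did not pass for Il2rb (log2 -0.09, SE 0.0596, adjusted p = 0.184), Il2ra (0.05, SE 0.0622, adjusted p = 0.477) or Il4ra (0.10, SE 0.0547, adjusted p = 0.132).

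**Figure D2:**
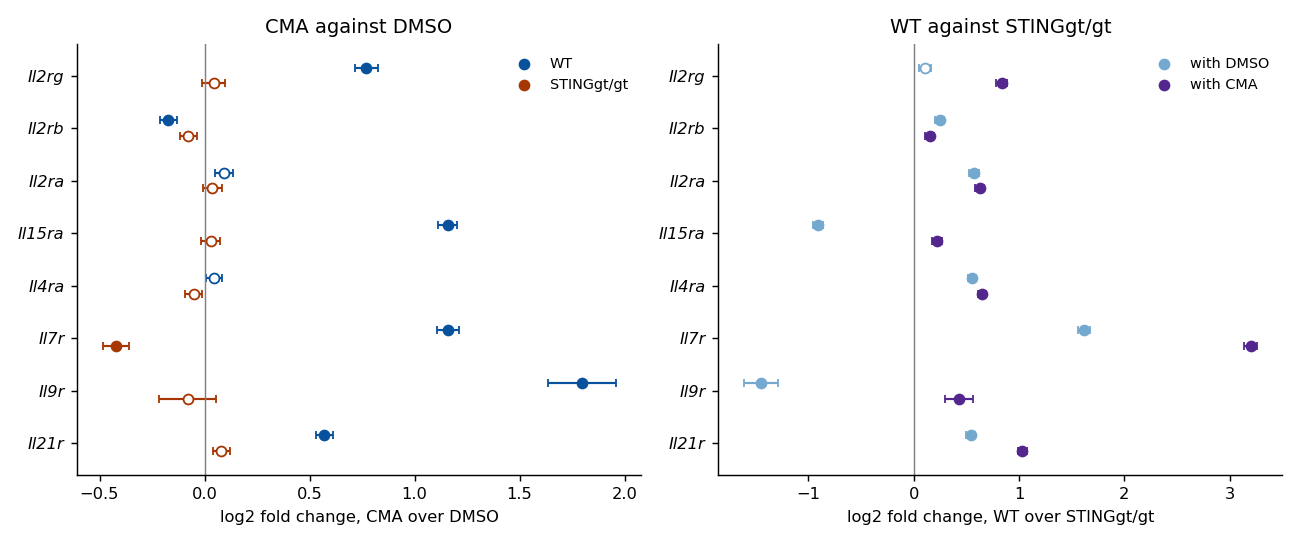
Log2 fold changes of the 8 receptor mRNAs, with CMA against DMSO in each genotype (left) and WT against STINGgt/gt with each treatment (right); bars are the SE of the edgeR model and filled points have an adjusted p under 0.05. Il7r changes in opposite directions in the 2 genotypes, and Il15ra and Il9r lie below 0 in WT against STINGgt/gt with DMSO and above 0 with CMA.

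Il2rg encodes the chain that the receptors for all 6 cytokines share. In WT T cells its level was 254.0, 284.9 and 246.1 CPM with DMSO and 435.6, 453.6 and 449.5 CPM with CMA. Every CMA library lay above every DMSO library. The change was 1.71-fold (log2 0.77, SE 0.0545, adjusted p = 2.07e-09). The STINGgt/gt libraries held 250.4, 237.3 and 240.5 CPM with DMSO and 265.4, 239.6 and 245.4 CPM with CMA, which overlapped (log2 0.04, SE 0.0544, adjusted p = 0.797). The change in WT exceeded that in STINGgt/gt by a log2 value of 0.73 (SE 0.0769, adjusted p = 5.91e-07).

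Il2rb, the signalling chain that IL-2 and IL-15 share, was the receptor mRNA that fell with CMA in WT. Its WT levels were 846.1, 847.7 and 818.4 CPM with DMSO and 730.0, 760.0 and 740.4 CPM with CMA. The groups did not overlap, and the change was small (log2 -0.17, SE 0.0422, adjusted p = 0.00171). With DMSO the STINGgt/gt libraries held 671.4, 705.1 and 736.7 CPM, the widest spread of Il2rb in any group, and with CMA 686.9, 655.4 and 661.6 CPM, which overlapped (log2 -0.08, SE 0.0422, adjusted p = 0.474).

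Since Il2rg rose and Il2rb fell in WT, their ratio within each library, which does not depend on the scaling, is given as well. Per kb of exon, Il2rg stood to Il2rb as 0.539, 0.604 and 0.540 in WT with DMSO and as 1.07, 1.07 and 1.09 with CMA. The ratio was 0.670, 0.604 and 0.586 in STINGgt/gt with DMSO and 0.694, 0.657 and 0.666 with CMA. By these exon lengths the ratio exceeded 1 in the WT libraries with CMA and in no other library. The lengths are from GENCODE M21, where Il2rb spans 78479256 to 78495271, more than the positions deposited with the counts (78480553 to 78495066). Whether the added bases were counted is not known, so the place of the ratio against 1 is uncertain. Its rise with CMA does not depend on the lengths. The other 7 chains together amounted to 6.07 to 7.28 times the level of Il2rg in WT with DMSO and to 4.25 to 4.52 times with CMA, against 4.86 to 5.39 times in the STINGgt/gt libraries.

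**Figure D3:**
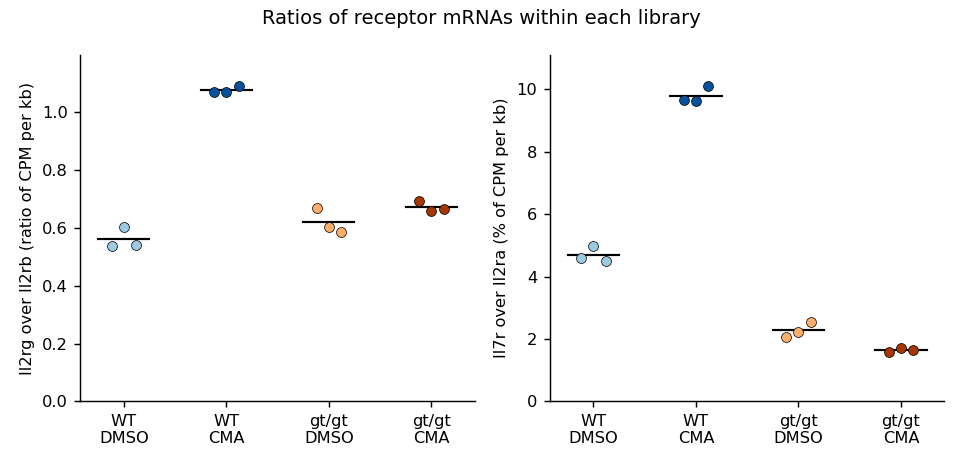
Ratio of Il2rg to Il2rb (left) and Il7r as a percentage of Il2ra (right), both per kb of exon, in each library; points are libraries (n = 3 per group) and bars their means. The Il2rg to Il2rb ratio lies between 1.07 and 1.09 in WT with CMA and below 0.7 elsewhere, and Il7r amounts to 9.61% to 10.1% of Il2ra in WT with CMA and to 1.57% to 2.53% in STINGgt/gt (gt/gt).

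Il2ra, the neighbour of Il15ra, did not pass the test with CMA in either genotype. In WT it had 1870, 1803 and 2004 CPM with DMSO and 2064, 2036 and 1948 CPM with CMA. These groups overlapped through the highest DMSO library and the lowest CMA library, both replicate 3 (log2 0.09, SE 0.0439, adjusted p = 0.0742). Without the third WT library with DMSO the log2 value was 0.15 (adjusted p = 0.00441), which passes. With DMSO the STINGgt/gt levels were 1286, 1280 and 1250 CPM, and with CMA 1311, 1331 and 1274 CPM (log2 0.04, SE 0.0440, adjusted p = 0.781).

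Il15ra encodes the chain that binds IL-15 with high affinity and can present it to neighbouring cells. WT T cells contained 33.1, 33.8 and 31.2 CPM with DMSO and 75.2, 72.1 and 71.2 CPM with CMA. The change was 2.23-fold without overlap (log2 1.16, SE 0.0465, adjusted p = 1.53e-12). The STINGgt/gt libraries already held 60.8, 60.0 and 62.7 CPM with DMSO, and 63.9, 60.3 and 63.2 CPM with CMA (log2 0.03, SE 0.0443, adjusted p = 0.836). With DMSO, Il15ra was thus lower in WT by a log2 value of -0.91 (SE 0.0466, adjusted p = 2.28e-10), whereas with CMA it was higher in WT by 0.22 (SE 0.0441, adjusted p = 0.000252). The difference between the changes with CMA was 1.13 (SE 0.0641, adjusted p = 3.34e-10).

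Short stretches around motif matches are shown for the receptors whose promoter windows held any, since Il2ra, Il15ra, Il4ra and Il7r differ in how they moved with CMA. RefSeq windows of 300 bases (GRCm38, from 250 bases before to 50 bases after the start) were given for 7 of the 8 genes, with 2 starts for Il15ra; Il2rb had no entry. They were searched on both strands for GAAANNGAA, a repeat of the kind bound by interferon regulatory factors, for TTCNNNGAA, the palindromic form bound by STAT proteins, and for the NF-κB consensus. None of these motifs was found in the windows of Il2rg, Il9r and Il21r. The matches are printed 5′ to 3′ on the strand of the gene, with the motif in capitals.
Il15ra, first start, chr2:11705134-11705163 (interferon regulatory factor repeat, on the opposite strand): tcaccccttcTTCCATTTCaaacacttggc
Il15ra, second start, chr2:11705732-11705761 (interferon regulatory factor repeat): aagcaaaagcGAAAGCGAAtactccttagc
Il7r, chr15:9529999-9530028 (STAT palindrome): gttcaggagcTTCAGGGAAtaccaagatgc
Il2ra, chr2:11642581-11642610 (NF-κB consensus): tgccgcggcaGGGAATCCCCctttccttgt
Il4ra, chr7:125552281-125552310 (NF-κB consensus, on the opposite strand): ccttctcgcaGGAAAGCCCCgcgcggcgcg
The match in the first Il15ra window begins at base -149 and the one in the second at base 31 from that start. In the Il7r window the match begins at -142 from the RefSeq start, which lies inside the GENCODE M21 gene (9505788 to 9530176), as the match does, and in the Il2ra window at -201, where a further match on the opposite strand is shifted by 1 base. Over all 32851 windows, 8.56% held the interferon regulatory factor repeat, 8.30% the STAT palindrome and 8.46% the NF-κB consensus. The matches describe the letters in the windows and were not tested for a part in any change.

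Il4ra, the chain that IL-4 binds, and its neighbour Il21r, the chain for IL-21, differed in their response. Il4ra had 440.5, 452.8 and 446.9 CPM in WT with DMSO and 448.0, 480.6 and 455.8 CPM with CMA, which overlapped (log2 0.05, SE 0.0386, adjusted p = 0.292). The STINGgt/gt values were 299.1, 306.5 and 308.6 CPM with DMSO and 294.6, 295.3 and 291.6 CPM with CMA (log2 -0.05, SE 0.0388, adjusted p = 0.619). These lay just apart without passing the test. Il21r had 355.4, 374.1 and 367.9 CPM in WT with DMSO and 550.5, 548.0 and 530.3 CPM with CMA, a 1.48-fold rise without overlap (log2 0.57, SE 0.0412, adjusted p = 2.72e-09). Its STINGgt/gt values were 244.1, 255.4 and 253.8 CPM with DMSO and 276.5, 261.3 and 258.6 CPM with CMA (log2 0.08, SE 0.0413, adjusted p = 0.442). For Il21r the changes differed between the genotypes by a log2 value of 0.49 (SE 0.0583, adjusted p = 2.29e-06).

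Il7r encodes the chain for IL-7, which resting T cells carry and which is lost upon activation. It was the receptor whose mRNA differed most between WT and STINGgt/gt. WT T cells contained 69.8, 73.3 and 73.7 CPM with DMSO and 163.0, 159.8 and 161.3 CPM with CMA. The WT groups were far apart at 2.23-fold (log2 1.16, SE 0.0536, adjusted p = 9.43e-12). In the STINGgt/gt libraries Il7r had 21.7, 23.3 and 25.9 CPM with DMSO and 16.9, 18.7 and 17.2 CPM with CMA. It fell there (log2 -0.42, SE 0.0624, adjusted p = 0.00271), without overlap of the groups. The difference between the changes was 1.58 (SE 0.0822, adjusted p = 1.16e-10). Between the genotypes Il7r was 3.07-fold higher in WT with DMSO (log2 1.62, SE 0.0584, adjusted p = 3.91e-12) and 9.17-fold higher with CMA (log2 3.20, SE 0.0597, adjusted p = 1.11e-16). Set against Il2ra within the same library, Il7r amounted to 4.50% to 4.98% in WT with DMSO and to 9.61% to 10.1% with CMA, against 2.06% to 2.53% and 1.57% to 1.72% in STINGgt/gt.

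Il9r, the chain for IL-9, had the lowest level of the 8 and the largest change with CMA in WT. Its levels were 1.68, 1.51 and 1.24 CPM in WT with DMSO, from 46, 45 and 51 reads, and 4.94, 4.75 and 5.48 CPM with CMA, from 177, 154 and 174 reads. The change was 3.48-fold without overlap (log2 1.80, SE 0.160, adjusted p = 3.79e-08), and it ranked 562 from the top among the 13811 genes tested, ahead of Il7r at 1067 and Il15ra at 1069. The STINGgt/gt libraries held 3.17, 4.16 and 4.64 CPM with DMSO and 3.41, 4.09 and 3.72 CPM with CMA, which overlapped (log2 -0.08, SE 0.135, adjusted p = 0.855). Like Il15ra, Il9r was lower in WT than in STINGgt/gt with DMSO (log2 -1.45, SE 0.164, adjusted p = 2.65e-06) and higher with CMA (0.43, SE 0.132, adjusted p = 0.00770).

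**Figure D4:**
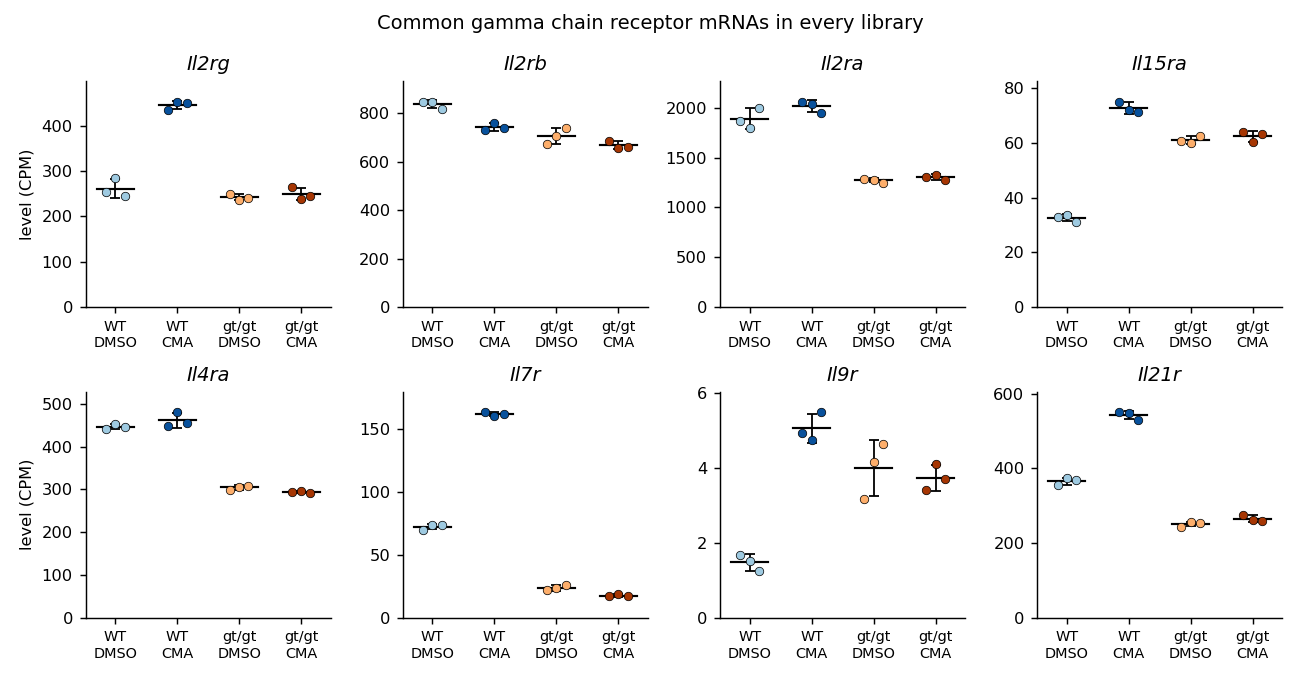
Level of each receptor mRNA in CPM (axes start at 0 and differ between panels) in every library of the 4 groups; bars are mean and SD (n = 3). The WT libraries with CMA lie above those with DMSO for Il2rg, Il15ra, Il7r, Il9r and Il21r, and below them for Il2rb.

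The second question was how the receptor levels differed between the genotypes. With DMSO, 5 of the 8 were higher in WT (Il7r, Il2ra, Il4ra, Il21r and Il2rb) and 2 were lower (Il9r and Il15ra), against 42.7% of all genes tested, 22.9% higher and 19.8% lower. Il2ra was 1.49-fold higher (log2 0.57, SE 0.0441, adjusted p = 2.86e-08), Il4ra 1.47-fold (0.55, SE 0.0388, adjusted p = 1.01e-08), Il21r 1.46-fold (0.54, SE 0.0414, adjusted p = 2.54e-08) and Il2rb 1.19-fold (0.25, SE 0.0422, adjusted p = 0.000166). Il2rg did not pass (0.11, SE 0.0545, adjusted p = 0.124), but did without the third WT library with DMSO (0.15, adjusted p = 0.0281). With CMA all 8 were higher in WT, against 73.5% of all genes tested, 37.0% as higher and 36.5% as lower. The median over the receptors was a log2 value of 0.64, and over all genes -0.0047. Il21r was 2.05-fold (log2 1.03, SE 0.0415, adjusted p = 1.03e-12), Il2rg 1.78-fold (0.84, SE 0.0545, adjusted p = 5.40e-10), Il4ra 1.57-fold (0.65, SE 0.0388, adjusted p = 1.69e-10), Il2ra 1.54-fold (0.63, SE 0.0441, adjusted p = 1.45e-09) and Il2rb 1.11-fold higher (0.15, SE 0.0422, adjusted p = 0.00349). The comparisons share libraries with those of CMA against DMSO and are no separate evidence on them.

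Markers of other cells moved with the genotype, and in part with CMA. All 6 B-cell markers, among them Ms4a1, Cd79a, Cd79b, Cd22 and Pax5, were higher in WT than in STINGgt/gt with either treatment. Among all genes tested 22.9% were so with DMSO and 37.0% with CMA. With CMA in WT 5 of the 6 B-cell markers rose, against 33.0% of all genes tested. Their summed level was 253.3 to 265.5 CPM in WT with DMSO, 349.9 to 377.8 in WT with CMA, 115.4 to 121.8 in STINGgt/gt with DMSO and 114.1 to 115.1 in STINGgt/gt with CMA. None of them was near 0. B cells also carry several of these receptors, among them the chains for IL-4 and IL-21. The cells were sorted as naive T cells, and the purity of the sequenced cultures is not given. The CD8 and natural killer cell markers summed to 64.7 to 69.1 CPM in DMSO-treated WT libraries. The sum was 48.0 to 49.5 CPM in CMA-treated WT libraries and 28.0 to 29.4 CPM in the STINGgt/gt libraries. Cd8a and Cd8b1 made up most of it. Of the natural killer cell markers, Ncr1 stayed below 1 CPM on average in every group, but others were higher. Klrb1c, Klrd1 and Klrk1 averaged 2.125, 6.80 and 7.27 CPM in DMSO-treated WT cells. Their means were 0.409, 4.33 and 6.725 CPM in CMA-treated WT cells, and 1.42, 2.75 and 4.11 CPM in DMSO-treated STINGgt/gt cells. The myeloid markers summed to 60.7 to 68.5 CPM in WT with DMSO, 74.6 to 79.3 with CMA and 40.2 to 45.9 in STINGgt/gt. Cst3 made up most of this sum and alone rose with CMA in WT, from 38.6 to 55.7 CPM on average. In contrast, 3 of the myeloid markers fell, against 37.4% of all genes tested. These were Lyz2 from 3.25 to 1.16, Itgam from 3.31 to 1.02 and Fcer1g from 4.23 to 2.54 CPM. The macrophage marker Adgre1 was near 0, with 1 to 6 reads per library. The 2 markers of regulatory T cells, which carry much Il2ra, summed to between 10.2 and 16.5 CPM over all libraries. Of the 6 T-cell markers 3 were lower and 1 was higher with CMA in WT, against 37.4% and 33.0% of all genes tested. Their summed level there (1699 to 1734 CPM) lay below that of every other group, and Cd3e had 252.5 CPM on average with DMSO and 160.3 CPM with CMA. The read tallies moved with the groups too. Reads outside annotated genes made up 4.86% to 5.47% in WT with DMSO, 6.79% to 7.16% in WT with CMA and 5.98% to 6.54% in STINGgt/gt, and alignments that were not unique 29.56% to 30.28%, 27.77% to 27.94% and 28.09% to 29.04%. The part of these shifts in the receptor differences was not tested. In bulk RNA, fewer cells of a type and less RNA per cell cannot be told apart.

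The receptors did not form 1 pattern across the 12 libraries. On the log2 scale, Il2ra, Il4ra, Il7r and Il21r ran together, with Pearson's r between 0.903 and 0.980 for each pair of them. Il15ra and Il9r formed a second pattern (r = 0.971), and Il15ra ran against Il2rb (r = -0.745). These values follow mainly the 4 group means and are given as a description. Among 11198 genes with a mean count of at least 50, those most like each of 7 receptors were Gipr for Il2rb (r = 0.978), Dusp16 for Il2ra (0.995), Mndal for Il15ra (0.985), Bcl3 for Il4ra (0.998), Cxcr4 for Il7r (0.997), Srrm2 for Il9r (0.983) and Lrp1 for Il21r (0.996). Dcaf15 was the second nearest of Il2rg (0.996). For Il15ra, Mndal is followed by Ifi203 (0.982), both members of the interferon-inducible Ifi200 family. The third nearest of Il15ra (0.982) is not of that family, and 43 genes lay above an r of 0.95. Il15ra itself was the third nearest of Il9r, and the B-cell marker Cd22 was the third nearest of Il4ra (0.995). Many genes were nearly as close, from 26 above an r of 0.95 for Il9r to 855 for Il2rg.

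Of the ligands, Il15 and Il2 rose with CMA in WT T cells. Il15 had 0.656, 0.436 and 0.415 CPM with DMSO and 9.99, 9.23 and 9.96 CPM with CMA (log2 4.30, SE 0.147, adjusted p = 2.06e-13). In STINGgt/gt libraries Il15 lay between 0.339 and 0.644 CPM (log2 -0.58, SE 0.235, adjusted p = 0.332). The ligand and its receptor chain Il15ra were thus both higher with CMA in WT, by log2 values of 4.30 and 1.16. Il2, the growth factor that activated T cells make for themselves, had 3.46, 3.66 and 3.07 CPM in WT with DMSO and 23.3, 21.1 and 18.2 CPM with CMA (log2 2.63, SE 0.124, adjusted p = 1.22e-11). It also rose in STINGgt/gt, from 6.16, 5.25 and 5.07 CPM to 8.39, 9.79 and 11.0 CPM (log2 0.82, SE 0.119, adjusted p = 0.00243), and the change in WT was larger by 1.81 (SE 0.176, adjusted p = 2.20e-07).

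Il21, which follicular helper and other activated CD4+ T cells secrete, differed between the genotypes rather than with CMA. The WT libraries held 73.3, 78.9 and 90.4 CPM with DMSO and 99.9, 92.7 and 81.1 CPM with CMA, which overlapped (log2 0.17, SE 0.0924, adjusted p = 0.108). The STINGgt/gt libraries held 2.53, 2.30 and 2.55 CPM with DMSO and 2.58, 1.36 and 1.92 CPM with CMA. With DMSO the difference between the genotypes was a log2 value of 5.04 (SE 0.136, adjusted p = 2.15e-13), beside 0.54 for its receptor Il21r. Il4 was low throughout, with at most 1.57 CPM, and higher in WT with DMSO (log2 1.92, SE 0.298, adjusted p = 7.13e-05). Il7 had at most 1 read and Il9 at most 4 reads in any library, so that neither was tested. IL-7 is made chiefly by stromal cells.

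Of the 28 further genes of the pathway 26 were tested, of which 9 were higher and 5 lower with CMA in WT, against 33.0% and 37.4% of all genes tested, with a median log2 change of -0.002. With CMA in STINGgt/gt, Il2 was higher and Socs3 and Bcl2 were lower, against 0.398% and 0.920% of all genes tested. With a block on the replicate number 4 were lower there, but none was with the block by library name, in limma on the authors' log2 table, at an adjusted p under 0.01, or without any 1 of the 6 STINGgt/gt libraries. It was also none without WT with CMA 1 or 2, and 7 in a fit of the compared groups alone. The count was 4 without WT with DMSO 2 or 3, and 1 without WT with CMA 3. Of the partner chains, Il13ra1, which pairs with Il4ra to form the receptor for IL-13, fell in WT from 9.10, 10.2 and 12.6 CPM to 4.02, 4.26 and 3.50 CPM (log2 -1.44, SE 0.150, adjusted p = 2.55e-07). It was at most 1.25 CPM in STINGgt/gt. Crlf2, which pairs with Il7r to bind thymic stromal lymphopoietin, did not pass in either genotype (log2 -0.09 in WT, adjusted p = 0.478).

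Among the 7 kinases and STATs, 3 were higher and 1 was lower with CMA in WT, where 70.4% of all genes passed. Stat5a rose from 268.2, 280.0 and 276.2 CPM to 365.7, 370.5 and 334.2 CPM (log2 0.38, SE 0.0449, adjusted p = 1.27e-06), without overlap of the groups. Stat6, which IL-4 activates, rose as well (0.34, SE 0.0358, adjusted p = 2.89e-07). Jak1 (log2 -0.08, adjusted p = 0.214) and Jak3 (-0.16, adjusted p = 0.0780), the kinases bound to the receptors, did not pass. None of the 7 was called with CMA in STINGgt/gt by edgeR, where 1.32% of all genes passed.

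Of the 7 feedback inhibitors, 2 were higher and 3 lower with CMA in WT, a share near the 70.4% of all genes. Socs2 fell from 23.5, 22.6 and 24.1 CPM to 12.7, 14.1 and 13.8 CPM (log2 -0.79, SE 0.112, adjusted p = 9.40e-06). Sh2b3, an adaptor that restrains cytokine signalling, rose (0.57, SE 0.0478, adjusted p = 1.95e-08). Socs3 fell in WT (-0.37, SE 0.0526, adjusted p = 8.06e-06). In STINGgt/gt it had a log2 value of -0.25 (SE 0.0571, adjusted p = 0.0396). That call was lost under those alternatives named above in which no pathway gene was lower. The changes of Socs3 did not differ between the genotypes past the threshold (adjusted p = 0.188). Of the 6 STAT5 target genes 2 were higher in WT, a share near the 33.0% of all genes. They were Ccnd2, which encodes cyclin D2 (log2 1.12, SE 0.0474, adjusted p = 2.90e-12), and the kinase gene Pim1 (0.93, SE 0.0388, adjusted p = 2.32e-12). Bcl2, Osm, Ccnd3 and Lta did not pass in WT. For the difference of the changes, WT minus STINGgt/gt, 5 of the 6 were higher, all but Ccnd3, against 27.2% of all genes tested.

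**Figure D5:**
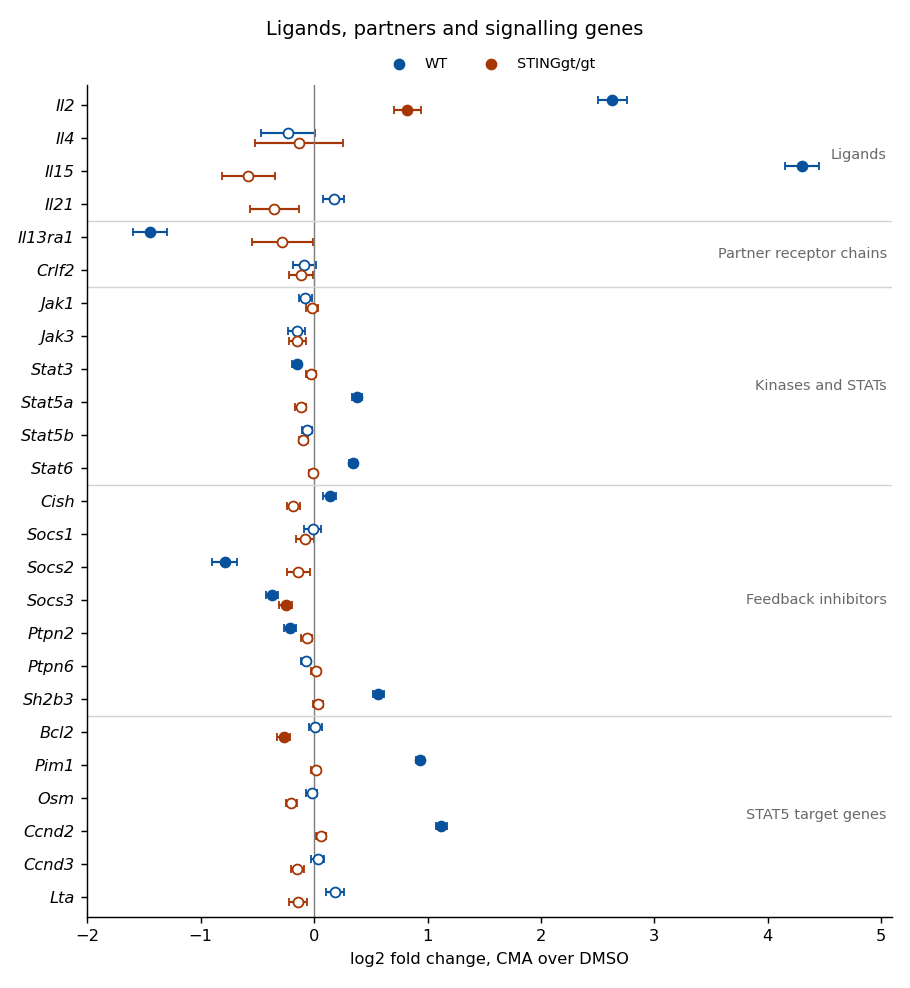
Log2 fold change with CMA against DMSO of 25 of the tested ligands, partner chains, kinases and STATs, feedback inhibitors and STAT5 target genes in WT and STINGgt/gt; bars are the SE of the edgeR model and filled points have an adjusted p under 0.05. Il15 and Il2 show the largest changes in WT, and Il2, Socs3 and Bcl2 are the filled points in STINGgt/gt.

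For comparison, of 22 receptors for other cytokines 11 were higher and 6 lower with CMA in WT, with a median log2 change of 0.18, beside 5 and 1 of 8 and a median of 0.67 for the common gamma chain receptors. Both shares of called genes were near the 70.4% of all genes tested. The largest rises were those of Il10ra (log2 1.19, SE 0.0582, adjusted p = 2.00e-11), Ifnar1 (0.98, SE 0.0452, adjusted p = 8.97e-12) and Il12rb2 (0.90, SE 0.0487, adjusted p = 6.72e-11) among those with a mean count of at least 50. The IL-18 receptor chains Il18rap (-1.49, SE 0.127, adjusted p = 2.11e-08) and Il18r1 (-1.42, SE 0.0917, adjusted p = 6.63e-10) fell most, followed by Il1rl1, the receptor for IL-33 (-0.94, SE 0.162, adjusted p = 7.05e-05). With CMA in STINGgt/gt 1.32% of all genes tested passed, 0.920% as lower. Of the 22 other receptors 1 passed there, Ifngr2, which was lower (log2 -0.26, SE 0.0548, adjusted p = 0.0242). None was lower with the block by library name, at an adjusted p under 0.01, or without STINGgt/gt with DMSO 1, 2 or 3 or with CMA 1 or 2, and between 1 and 3 were higher with DESeq2, limma-voom, another filter (none, or 10 counts or more per library), a fit of the compared groups alone or the replicate block, or without WT with DMSO 2 or 3.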

How the data were processed

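For 12 libraries of stranded mRNA the authors deposited unnormalised read counts on 38924 Ensembl gene IDs and a table of log2 values for 11921 genes, which also gave the positions. The submitters' processing notes name cutadapt 1.3, STAR 2.4.0f1, HTSeq 0.6.1, RSEM 1.2.16 and GRCm38; the strand setting of the counting is not given in the sources used here. That table named 11921 of the IDs, and a reference list a further 25762. Alignments that were not unique (27.8% to 30.3% of entries), reads outside genes (4.86% to 7.16%) and ambiguous reads (0.594% to 0.635%) did not enter the library sizes.

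The deposited counts were tested with edgeR 4.0.16 in R 4.3.3 (quasi-likelihood, TMM scaling, filterByExpr by group, 13811 genes, 4 groups in 1 model, Benjamini-Hochberg adjusted p under 0.05, two-sided). The SE is the log2 change over the root of F. CPM per kb used merged exons of GENCODE M21. Replicate numbers were checked for pairing by the correlation of same-numbered libraries' deviations from their group means. It was 0.125, 0.148 and 0.168 in STINGgt/gt, where the numbers met the rule for pairs (every correlation over 0.1), and 0.0656, 0.235 and 0.279 in WT, where they did not. The reported values have no block in either genotype. The labels do not say that a number marks a mouse. Their sample names share a first digit within each WT number, but not within STINGgt/gt number 2. The models were tested on simulated data. Alternatives were library-size scaling, DESeq2 1.42.0, limma 3.58.1 (voom, or on the authors' log2 table), another filter (none, or 10 counts or more per library), a fit of the compared groups alone, a stricter threshold (adjusted p of 0.01, or 2-fold), replicate blocks, and each library left out in turn. The receptors and lists were chosen with earlier results of these data known. Named were all receptors, the ligands, up to 3 called genes per further role by the size of change in WT, and the 3 other receptors with the largest and smallest change (mean count of at least 50). Some genes that these rules cover are not reported here. Promoter windows are those of RefSeq (GRCm38).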

Additional observations from a re-analysis of the deposited data

Results flagged for a closer look

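The change with CMA differed between WT and STINGgt/gt, by the interaction term in edgeR's model (adjusted p under 0.05), for 5 of the 8 receptors. The log2 differences, WT minus STINGgt/gt, were 1.88 for Il9r (adjusted p = 1.21e-06), 1.58 for Il7r (1.16e-10), 1.13 for Il15ra (3.34e-10), 0.73 for Il2rg (5.91e-07) and 0.49 for Il21r (2.29e-06). Il7r is the receptor that passed the test in both genotypes in opposite directions. Among all genes tested 58.8% differed in this way.

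Of the pathway genes named, the difference was 4.88 for Il15, 1.81 for Il2, 1.06 for Ccnd2, 0.92 for Pim1, 0.53 for Sh2b3, 0.50 for Stat5a and 0.35 for Stat6, and it was -1.16 for Il13ra1 and -0.65 for Socs2. Lta (0.33), Bcl2 (0.28) and Osm (0.18), which did not pass with CMA in WT, passed for this difference as well. Of the receptors for other cytokines it was 1.26 for Il10ra, 1.04 for Ifnar1, 0.97 for Il12rb2, -1.18 for Il1rl1, -1.59 for Il18rap and -1.74 for Il18r1.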

How the results depend on the processing

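All 27 calls of receptors in the 5 comparisons kept their direction and passed the threshold under each alternative run for their comparison other than the 2-fold minimum. The block by library name was not run between the genotypes, nor a fit of the compared groups alone for the difference of the changes. That minimum left 3 higher and 0 lower with CMA in WT, 0 lower in STINGgt/gt, 3 for the difference of the changes, 1 higher and 1 lower in WT with DMSO, and 2 higher in WT with CMA. Calls were gained for Il2ra with CMA in WT under 5 of 21 alternatives (adjusted p 0.00441 to 0.323), for Il4ra under 3 of 21 (0.0457 to 0.816) and in the difference under 3 of 20 (0.0294 to 0.347), and for Il2rg between the genotypes with DMSO under 1 of 20 (0.0281 to 0.575). With 1 library left out, the uncalled change of Il9r in STINGgt/gt lay between -0.2294 and 0.0345 and turned positive without STINGgt/gt with DMSO 3. That of Il2rg lay between -0.0039 and 0.0721 and turned negative without STINGgt/gt with CMA 1. The replicate block changed no receptor call (Il7r in STINGgt/gt: log2 -0.42, adjusted p = 0.00130), and a block by library name, in which Il7r had -0.48 (adjusted p = 0.0159), changed none of those with CMA against DMSO or of the difference. In WT the numbers did not meet the rule for pairs, though the sample names match them. Whether they mark shared mice is not stated.

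Over all genes, the 55 higher and 127 lower with CMA in STINGgt/gt became 130 and 233 with the replicate block, 12 and 31 with the block by library name, 123 and 200 with DESeq2, 268 and 388 in a fit of the compared groups alone, 176 and 257 with no filter, 14 and 41 at an adjusted p under 0.01 and 2 and 2 with the 2-fold minimum. The log2 table gave 31 higher, and at least 10 counts in every library 85 higher. They were 180 and 276 without WT with DMSO 2, 169 and 289 without WT with DMSO 3, and without any 1 of the 6 STINGgt/gt libraries between 14 and 31 higher and between 41 and 72 lower. With the 2-fold minimum 1287 and 1061 genes were left with CMA in WT, 1201 and 1008 for the difference, 791 and 215 between the genotypes with DMSO and 1797 and 1139 with CMA. The cause of these shifts was not tested. The number of libraries, 3 per group, limits the precision, and for Il9r its low counts do so too.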
